A study of Mus musculus with 18 samples.

Results

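Igf1r, Insr, Irs2, Pik3r1, Pik3ip1, Inpp5d, Phlpp1 and Foxo3 form a small group of genes around the IGF1 receptor and the brakes of PI3-kinase (PI3K) signalling, and their levels were followed in regulatory T cells (Tregs) from mouse spleen and thymus. The group was picked with earlier results of these data known. Its probe sets were found by symbol: each carried exactly 1 annotated gene symbol, and that symbol was one of the 8. The brightest probe set was kept where a gene had several. All 8 were found among the 19752 genes on the arrays, and all 8 passed the filter on dim genes in each fit. Of the group, 3 genes (Igf1r, Insr and Irs2) encode parts that start the signal and the other 5 encode parts that hold it back or are held back by it, so the name of brakes covers only some of them.

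IGF1 and insulin bind related receptor tyrosine kinases, encoded by Igf1r and Insr, which phosphorylate adaptors such as Irs2 and thereby recruit PI3K. The lipid that PI3K makes brings the kinase AKT to the membrane, where it is switched on, raises mTOR activity and keeps FOXO transcription factors out of the nucleus. In T cells PI3K is also switched on by the antigen receptor, by CD28 and by the IL-2 receptor, and Tregs are known to depend on restraint of this pathway to keep their identity.

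The study used 18 arrays of the Affymetrix type Mouse Gene 1.0 ST, in 6 groups of 3 replicates, all from NOD mice, a strain prone to autoimmune diabetes. The spleen cells came from female mice aged 60 days by the sample labels (8 weeks by the series text) that carried Foxp3-eGFP-Cre-ERT2, a recombinase expressed from the Treg gene Foxp3 and switched on by tamoxifen, together with the Rosa26-YFP reporter, so that a cell with active Foxp3 during treatment stays YFP+ with its progeny. Tamoxifen was given in 4 injections, between days 0 and 10 of life in perinate-treated mice and between days 35 and 45 in adult-treated mice. GFP+YFP+ cells of perinate-treated mice are called perinate-tagged, and those of adult-treated mice adult-tagged. GFP+YFP- cells, Tregs that escaped tagging or first expressed Foxp3 at another time, give the untagged perinate-treated and untagged adult-treated groups. The other groups are CD4+GFP+ Tregs, marked by a Foxp3-GFP reporter and sorted from the thymus of males, at 4 days of age for perinate thymus and at 5 weeks for adult thymus. Thymus and spleen differed in sex, age, sorter (FACSAria for spleen, MoFlo for thymus) and gate, which cannot be told apart between tissues. The labels do not say whether a replicate is 1 animal or a pool, so each p-value reflects only how these samples spread, which may be technical. In these bulk samples fewer cells of a type that expresses a gene and less RNA per cell cannot be told apart.

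All 7 Treg markers, Foxp3 among them, reached the median level of the table in each of the 6 groups, and 1 of them, the IL-2 receptor chain Il2ra, was called lower in perinate-tagged cells (12.29) than in adult-tagged cells (12.67). Of 5 B cell markers on the array only Cd79b reached it, and their summed linear intensity was 875 to 1039 in perinate-tagged arrays, 657 to 740 in adult-tagged arrays and 617 to 741 in untagged perinate-treated arrays. Of the markers of other cell types, Cd79b, the macrophage gene Cd68 and the epithelial gene Epcam were called higher in perinate-tagged than in adult-tagged cells, by 0.66, 0.54 and 1.07. Cd79b and Cd68 were each the only tested gene of their list. The other genes on the stroma and epithelium list of Epcam all had lower means in perinate-tagged cells, none of them called, and the list median was -0.31. Epcam was at 6.47 in adult-tagged cells and at 7.15 to 7.54 in the other groups. The interquartile range of an array's log2 intensities was 3.05 ± 0.09 (SD, n = 3) in perinate-tagged arrays and 2.65 ± 0.21 in adult-tagged arrays. It was 2.95 ± 0.07 in untagged perinate-treated and 2.77 ± 0.28 in untagged adult-treated arrays, and 3.03 ± 0.03 in perinate thymus and 2.53 ± 0.39 in adult thymus. The sex label of perinate-tagged replicate 2 is in doubt, because Eif2s3y, which lies on the Y chromosome, reached a log2 level of 9.79 there, with all 11 remaining spleen arrays between 3.95 and 4.90. Xist, a transcript of female cells, was at 8.38 on that array, at 11.86 to 12.41 on the other spleen arrays and at 5.70 to 6.30 on the male thymus arrays. Whether the sample mixed cells of both sexes was not tested. The 2 calls among the 8 genes between perinate-tagged and adult-tagged cells stood without perinate-tagged replicate 2.

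The first comparison asked whether Tregs tagged around birth and still present in the adult spleen differ from Tregs tagged in adult life. All spleen mice were taken at 60 days, so perinate-tagged cells were also longer past tagging. Age at tagging and time since tagging cannot be told apart here. Igf1r and Pik3ip1 fell in perinate-tagged cells, and the other 6 genes did not pass the test (limma, Benjamini-Hochberg adjusted p under 0.05). The 2 calls among 8 stand against 19.5% of the 10350 genes tested, and both were lower, against 3.50% of all genes called lower and 16.0% called higher. Because the 8 genes were picked with earlier results of these data known, these shares and those below describe the group and do not test it. The median difference of the 8 genes was -0.20 on the log2 scale, beside 0.12 over all genes tested.

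Igf1r, the receptor tyrosine kinase for IGF1, had log2 intensities of 8.53, 8.61 and 8.63 in perinate-tagged replicates 2, 4 and 5, against 9.79, 9.92 and 9.66 in adult-tagged replicates 1, 2 and 3. The 3 perinate-tagged arrays lay close together, and the highest of them was below the lowest adult-tagged array by more than either group spanned. The mean was 385.5 ± 14.9 (SD, n = 3) in linear intensity in perinate-tagged cells and 888.1 ± 82.5 in adult-tagged cells. The log2 difference was -1.20 ± 0.18 (SE), a 2.3-fold lower level (adjusted p = 3.96e-04, limma), the 12th most negative among 10350 genes.

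Pik3ip1, a membrane protein that binds the catalytic subunit of PI3K and restrains it, had 8.24, 7.74 and 7.86 in perinate-tagged replicates 2, 4 and 5, against 9.04, 8.92 and 8.77 in adult-tagged replicates 1, 2 and 3. Replicate 2, the array with the doubtful label, was the highest of the perinate-tagged arrays, and the groups still did not overlap. The log2 difference was -0.96 ± 0.19 (adjusted p = 0.00275, limma), a 1.95-fold lower level, the 32nd most negative among 10350 genes. Igf1r, whose product sends the signal, and Pik3ip1, whose product restrains it, were thus both lower in the same 3 arrays.

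Over the whole table the higher and lower calls depended on how the arrays were scaled, while the direction of both genes did not. There were 1657 genes called higher and 362 lower with the values as deposited, 1066 and 902 after quantile normalization, and 910 and 1365 after centring each array on the median of the genes tested. The median of all genes was 0.12 with the values as deposited, and moved by -0.16 under quantile normalization and by -0.21 under that centring. Relative to the median of all genes, Igf1r differed by -1.32 and Pik3ip1 by -1.08 on the log2 scale. When the fit also held each array's interquartile range, the differences were -1.64 for Igf1r and -1.18 for Pik3ip1, and both still passed. The part of the higher Cd79b, Cd68 and Epcam in these differences was not tested.

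**Figure D1:**
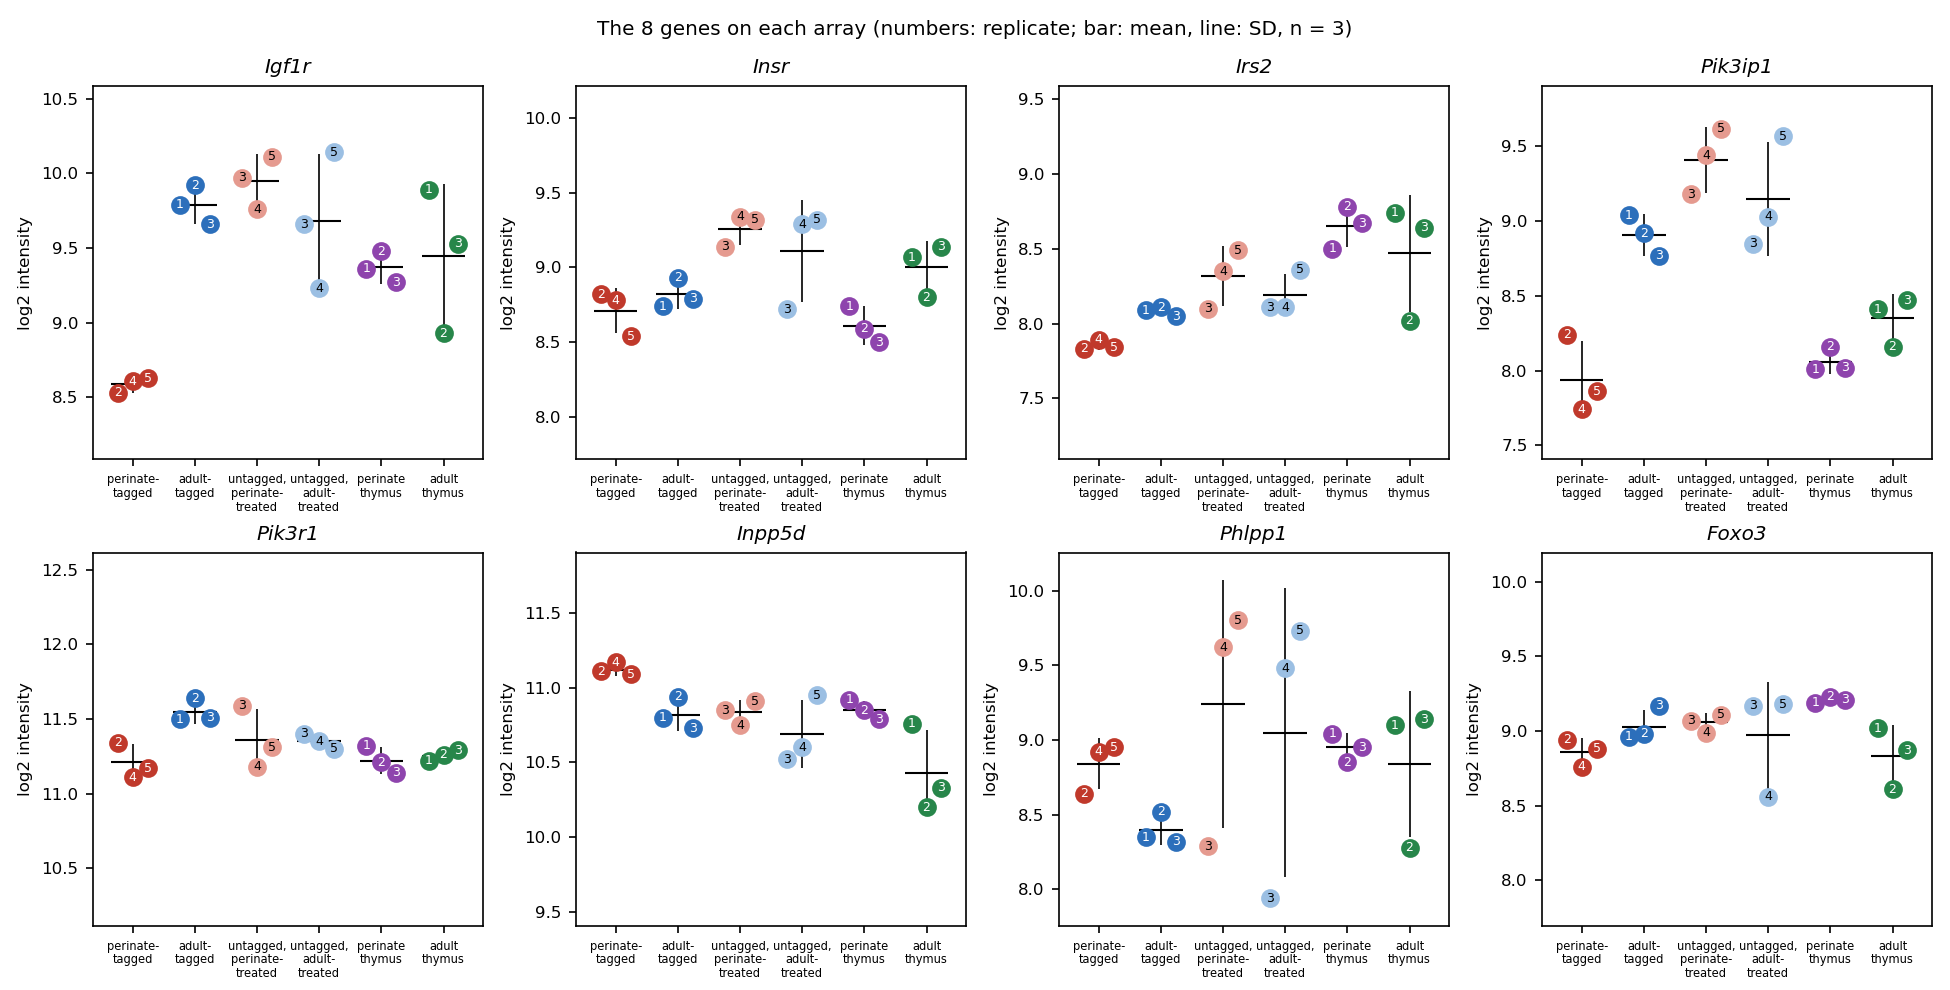
Log2 intensity (vertical axis) of each of the 8 genes on every array, by group (horizontal axis); numbers in the points are replicates, bars are means and vertical lines SDs (n = 3). The 3 perinate-tagged arrays sit at 8.53 to 8.63 for Igf1r, below all 15 other arrays, and the untagged replicates 3 sit apart from replicates 4 and 5 for Phlpp1.

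Because Igf1r and Pik3ip1 were lower in the same arrays, the stretches before their start sites are shown, as RefSeq gives them on GRCm38.p6 (plus strand for both, 5′ to 3′, the 250 bases before the start), with each CpG in capitals. The Igf1r stretch lies at chr7:67952007-67952256 and holds 42 CpG, and the Pik3ip1 stretch lies at chr11:3330481-3330730 and holds 5.
Igf1r: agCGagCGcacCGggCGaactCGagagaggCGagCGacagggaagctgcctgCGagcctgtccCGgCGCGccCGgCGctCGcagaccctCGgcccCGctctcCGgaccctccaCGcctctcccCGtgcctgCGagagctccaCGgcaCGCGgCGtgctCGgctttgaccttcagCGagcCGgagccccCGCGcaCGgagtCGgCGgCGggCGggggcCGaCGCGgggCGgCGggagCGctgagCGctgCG
Pik3ip1: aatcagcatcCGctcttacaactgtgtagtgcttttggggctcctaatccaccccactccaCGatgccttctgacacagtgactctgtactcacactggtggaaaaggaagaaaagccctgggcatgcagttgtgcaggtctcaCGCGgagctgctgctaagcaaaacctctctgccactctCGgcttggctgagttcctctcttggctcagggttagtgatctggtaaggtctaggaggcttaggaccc

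The 2 start regions were unlike each other in base composition. Over the windows of 300 bases, which reach 50 bases past the start, the G and C content was 76.0% for Igf1r and 54.7% for Pik3ip1, beside a median of 52.7% over 32851 windows. The windows held 48 CpG for Igf1r and 7 for Pik3ip1, beside a median of 7. RefSeq windows were found for 7 of the 8 genes, 8 windows in all since Pik3r1 has 2, and none for Insr. The letters GTAAACA, the core that FOXO factors bind, searched on both strands with no other motif, were in 0 of these 8 windows and in 1199 of 32851 windows (3.65%).

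Insr, the insulin receptor, had 8.82, 8.78 and 8.54 in perinate-tagged cells and 8.74, 8.93 and 8.79 in adult-tagged cells. The groups overlapped, and the log2 difference was -0.11, with a 95% interval of -0.44 to 0.23. Irs2, the adaptor that links both receptors to PI3K, had 7.83, 7.89 and 7.84 in perinate-tagged cells, against 8.09, 8.11 and 8.05 in adult-tagged cells. Its arrays varied little and did not overlap, but the difference of -0.23 ± 0.13 did not pass with the spread of all 4 spleen groups (adjusted p = 0.205, limma). The lower value of Igf1r was therefore not shared at that size by the related receptor or by the adaptor.

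Pik3r1, the regulatory subunit that both stabilises and restrains the catalytic subunit of PI3K, had 11.34, 11.11 and 11.17 in perinate-tagged cells, against 11.50, 11.64 and 11.51 in adult-tagged cells. All 3 perinate-tagged arrays were below the 3 adult-tagged ones, and the difference of -0.34 ± 0.13 did not pass (adjusted p = 0.0703, limma). Both Pik3r1 and Irs2 did pass after quantile normalization, at -0.48 and -0.42, with adjusted p = 0.0113 and 0.015. Of all 17 alternatives, Pik3r1 passed in 6 and Irs2 in 3, lower each time.

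Neither phosphatase passed. Inpp5d encodes SHIP1, which removes a phosphate from the lipid that PI3K makes, and had 11.11, 11.17 and 11.09 in perinate-tagged cells, against 10.80, 10.94 and 10.73 in adult-tagged cells. The groups did not overlap and the difference was 0.30 ± 0.13 (adjusted p = 0.106, limma). Phlpp1, which dephosphorylates AKT, had 8.64, 8.92 and 8.95 in perinate-tagged cells, against 8.35, 8.52 and 8.32 in adult-tagged cells. These groups did not overlap either, but the difference of 0.44 ± 0.40 (adjusted p = 0.461, limma) carried a large error, taken from all 4 spleen groups. Its sign turned, to -0.38 with the replicate block and to -0.04 with the interquartile range as a covariate.

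Foxo3, a transcription factor that AKT keeps out of the nucleus, had 8.94, 8.76 and 8.88 in perinate-tagged cells and 8.96, 8.98 and 9.17 in adult-tagged cells. The closest arrays of the 2 groups were nearly level, and the difference was -0.17, with a 95% interval of -0.50 to 0.16. Counted by arrays alone, 7 of the 8 genes had groups that did not overlap, beside 45.8% of all genes. Between 3 and 3 arrays an exact permutation test of 1 gene cannot give a p below 0.1.

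**Figure D2:**
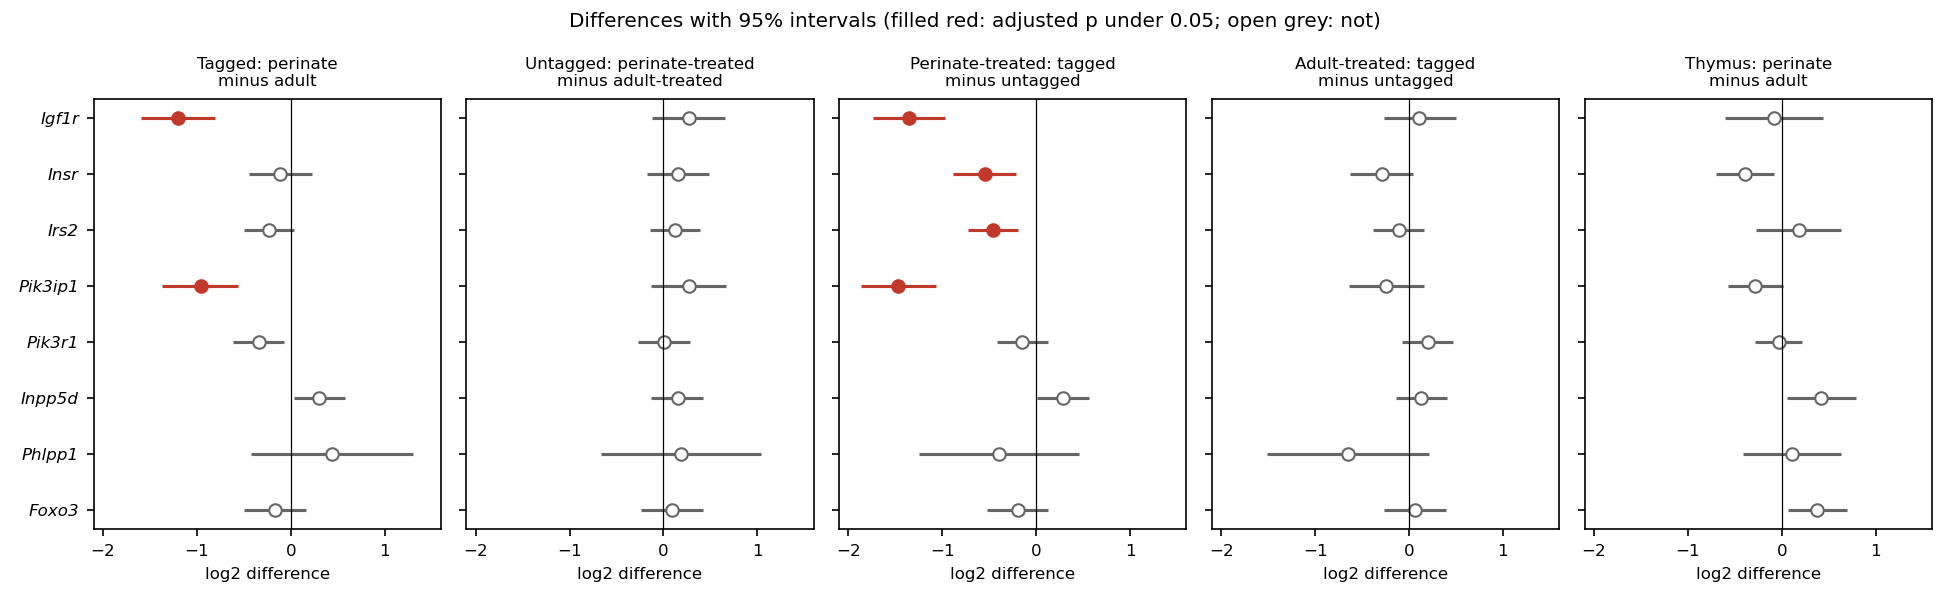
Log2 difference of each of the 8 genes (rows) in 5 comparisons (panels), with 95% intervals from limma; filled red points passed an adjusted p of 0.05. Igf1r and Pik3ip1 are red where perinate-tagged cells are compared with adult-tagged (-1.20 and -0.96) and with untagged perinate-treated cells (-1.36 and -1.47), and no gene is red in the untagged, adult-treated or thymus panels.

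Untagged cells of mice given tamoxifen at the same ages gave the background for the age at which tamoxifen was given. None of the 8 genes was called between untagged perinate-treated and untagged adult-treated cells, 0 had an unadjusted p under 0.05, and the groups overlapped for all 8 (4.81% of all genes had groups that did not). Over all genes 0 of 10350 were called by limma, 380 had an unadjusted p under 0.05, and a fit of these 6 arrays with the replicate number as a block called 37 (26 higher, 11 lower), none of them among the 8. Igf1r had 9.97, 9.76 and 10.11 in untagged perinate-treated replicates 3, 4 and 5, against 9.66, 9.23 and 10.14 in untagged adult-treated replicates 3, 4 and 5. The groups overlapped, with a difference of 0.27 and a 95% interval of -0.12 to 0.66. Pik3ip1 had 9.18, 9.44 and 9.62 in untagged perinate-treated cells, against 8.85, 9.03 and 9.57 in untagged adult-treated cells. These overlapped too, with a difference of 0.27 and a 95% interval of -0.13 to 0.67.

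The difference between tagged cells was then set against that between untagged cells in the same fit. For Igf1r the tagged difference lay below the untagged one by 1.47 on the log2 scale, written as -1.47 ± 0.26 (adjusted p = 0.00331, limma). For Pik3ip1 the value was -1.23 ± 0.27 (adjusted p = 0.0141, limma). It lost its call without adult-tagged replicate 1, at -1.17 and adjusted p = 0.0516. The other 6 genes did not pass, with values between -0.35 and 0.25. Cd79b (0.77) and Epcam (1.38) were called higher in this contrast too, and their part in it was not tested. These 2 of 8 calls stand against 4.89% of all genes, with 0.599% called lower and 4.29% higher. The calls over all genes were 444 higher and 62 lower, against 409 and 156 after quantile normalization and 368 and 171 after centring on the genes tested.

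Tagged cells were also compared with untagged cells of perinate-treated mice, which the labels do not tie to the same animals. This comparison shares the perinate-tagged arrays with the comparison above. Here 4 of the 8 genes fell in the tagged cells, against 7.34% of all genes called, with 1.86% lower and 5.49% higher: Igf1r, Pik3ip1, Insr and Irs2. Set against the untagged arrays already given, all 3 perinate-tagged arrays of each of these genes lay below all 3 untagged perinate-treated arrays. Counting arrays, 6 of the 8 genes had groups that did not overlap, beside 32.0% of all genes.

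Pik3ip1 had the difference of -1.47 ± 0.19 (adjusted p = 3.97e-04, limma), the 3rd most negative of 10350 genes, at a linear mean of 249.1 ± 47.0 (SD, n = 3) in perinate-tagged cells and 688.1 ± 104.9 in untagged perinate-treated cells. Igf1r differed by -1.36 ± 0.18 (adjusted p = 5.34e-04, limma) and was the 5th most negative, at a linear mean of 385.5 ± 14.9 in perinate-tagged cells and 991.3 ± 120.4 in untagged perinate-treated cells. The B cell marker Cd79b, the only tested gene of its list, was higher by 0.81 in the tagged cells of this comparison, and its part was not tested.

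Insr had 8.54 to 8.82 in perinate-tagged cells, against 9.14, 9.34 and 9.32 in untagged perinate-treated cells, and the difference was -0.55 ± 0.16 (adjusted p = 0.0456, limma). Irs2 had 7.83 to 7.89 in perinate-tagged cells, against 8.10, 8.35 and 8.49 in untagged perinate-treated cells, with a difference of -0.46 ± 0.13 (adjusted p = 0.0368, limma). Both calls were near the threshold and ended without any 1 of perinate-tagged replicates 2, 4 and 5 or untagged perinate-treated replicates 4 and 5, with differences of -0.60 to -0.47 for Insr and -0.48 to -0.37 for Irs2. Both also ended with median centring over all genes (-0.51 and -0.42) and with no filter, and that of Irs2 also with only these 2 groups (adjusted p = 0.0506, limma) or all 18 arrays (adjusted p = 0.0861) in the fit.

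**Figure D3:**
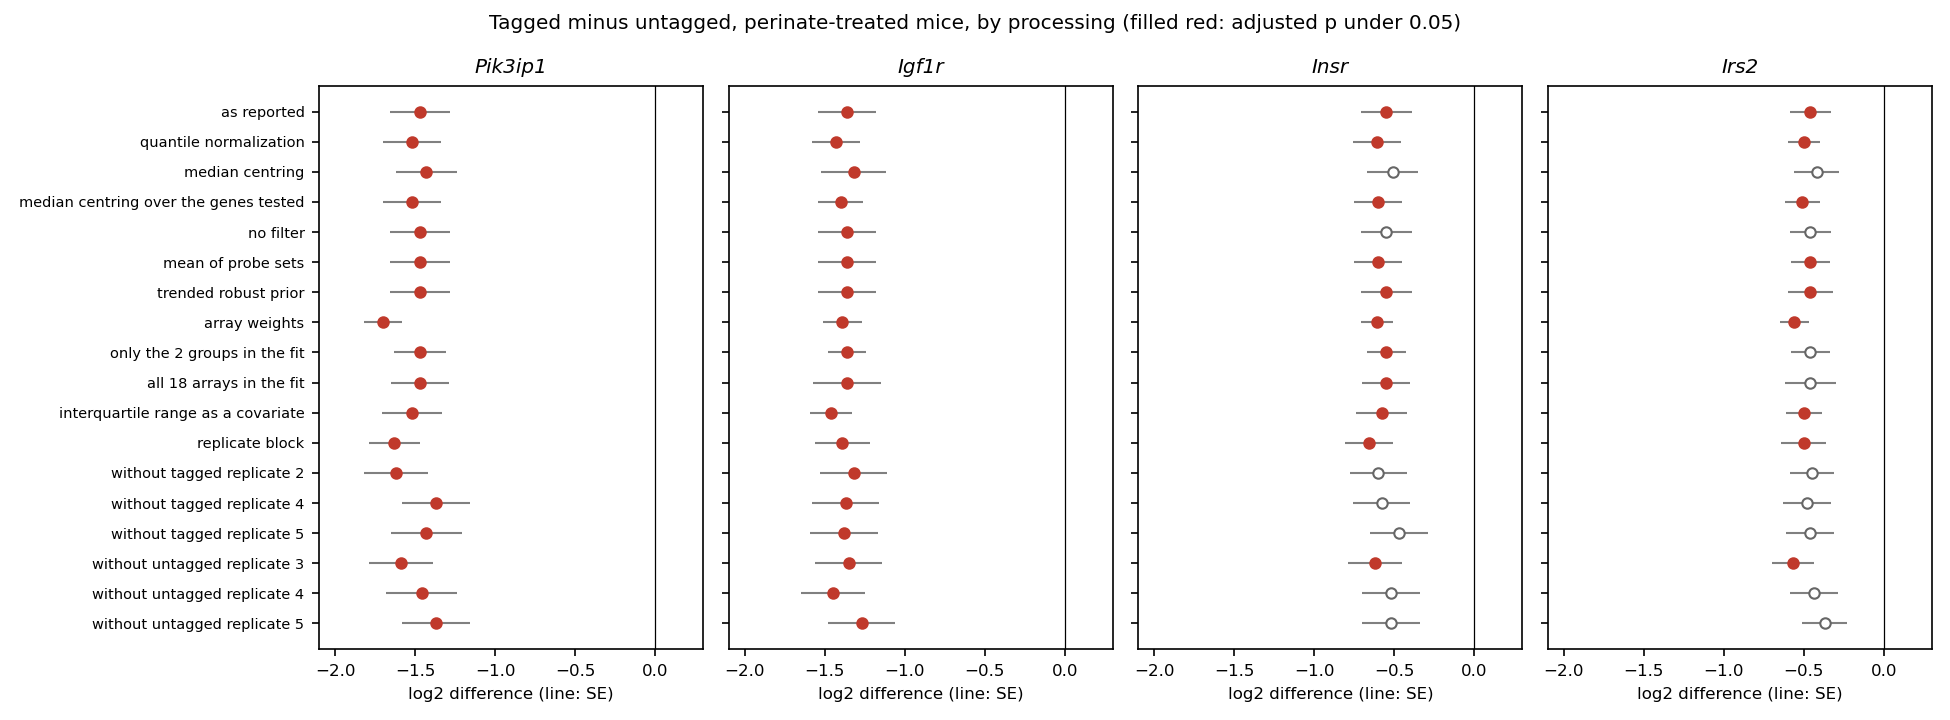
Log2 difference between tagged and untagged cells of perinate-treated mice, with its SE, for 4 genes (panels) under each alternative (rows); filled red points passed an adjusted p of 0.05. Pik3ip1 and Igf1r are red in all rows, while Insr and Irs2 turn open in several of the rows that leave out 1 array.

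The remaining genes of this comparison did not pass. Inpp5d had 11.09 to 11.17 in perinate-tagged cells, against 10.85, 10.75 and 10.91 in untagged perinate-treated cells, with no overlap and a difference of 0.29 ± 0.13 (adjusted p = 0.199, limma). Foxo3 had 8.76 to 8.94 in perinate-tagged cells, against 9.07, 8.99 and 9.11 in untagged perinate-treated cells, and did not overlap (-0.19). Pik3r1 had 11.11 to 11.34 in perinate-tagged cells and 11.59, 11.18 and 11.31 in untagged perinate-treated cells, and overlapped (-0.15). Over all genes 568 were called higher and 192 lower, against 518 and 383 after quantile normalization and 561 and 350 after centring on the genes tested.

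Phlpp1 spread most widely of the 8 genes between untagged replicates. It had 8.29, 9.62 and 9.80 in untagged perinate-treated replicates 3, 4 and 5, and 7.94, 9.48 and 9.73 in untagged adult-treated replicates 3, 4 and 5. In both groups replicate 3 was low and replicates 4 and 5 were high, a gap larger than any difference between group means of this gene. Replicate 3 was also the lowest of both untagged groups for Insr, Irs2 and Pik3ip1, with smaller gaps. With the replicate number as a block, the perinate-tagged minus adult-tagged difference of Phlpp1 turned to -0.38, and the tagged minus untagged difference in perinate-treated mice was -0.63 and passed (adjusted p = 0.0428, limma), against -0.40 without the block. That block joins tagged to untagged arrays of the same number. Over all genes their r was -0.11 and 0.00 in perinate-treated and 0.06 in adult-treated mice, so both block values rest on a pairing not seen there.

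Adult-tagged cells were compared with untagged cells of adult-treated mice in the same way. None of the 8 genes was called, and 0 had an unadjusted p under 0.05, in a comparison where 28 of 10350 genes (0.271%) were called, all lower. Igf1r had 9.66 to 9.92 in adult-tagged cells and 9.23 to 10.14 in untagged adult-treated cells, so the tagged arrays lay within the range of the untagged ones. The Igf1r difference was 0.11, with a 95% interval of -0.27 to 0.50, and that of Pik3ip1 was -0.24, with an interval of -0.64 to 0.16. For 2 of the 8 genes the groups did not overlap, beside 17.0% of all genes. These were Irs2, with 8.05 to 8.11 in adult-tagged cells and 8.11, 8.11 and 8.36 in untagged adult-treated cells (-0.11), and Pik3r1, with 11.50 to 11.64 in adult-tagged cells and 11.40, 11.35 and 11.30 in untagged adult-treated cells (0.20). The closest Irs2 arrays were equal to the decimals printed. The remaining genes overlapped. Insr had 8.74 to 8.93 in adult-tagged cells and 8.72, 9.29 and 9.32 in untagged adult-treated cells (-0.29). Inpp5d had 10.73 to 10.94 in adult-tagged cells and 10.52, 10.60 and 10.95 in untagged adult-treated cells (0.13). Foxo3 had 8.96 to 9.17 in adult-tagged cells and 9.17, 8.56 and 9.18 in untagged adult-treated cells (0.06). Phlpp1 had the largest difference of the 8, -0.65 ± 0.40 (adjusted p = 0.424, limma), with 8.32 to 8.52 in adult-tagged cells inside the range of 7.94 to 9.73 in untagged adult-treated cells. Without untagged adult-treated replicate 3, 765 genes were called, and 2 of the 8, Insr at -0.49 and Phlpp1 at -1.21, were among them.

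Thymic Tregs addressed whether the difference is already there where the cells arise. None of the 8 genes was called between perinate and adult thymus, in a comparison where 24.3% of 10650 genes were called, 18.4% higher and 5.82% lower. An unadjusted p under 0.05 was reached by 3 of the 8 genes, Insr, Foxo3 and Inpp5d. Igf1r had 9.36, 9.48 and 9.27 in perinate thymus and 9.89, 8.93 and 9.53 in adult thymus. The adult thymus arrays lay on both sides of the perinate ones, and the difference was -0.08, with a 95% interval of -0.60 to 0.44. With the interquartile range as a covariate the Igf1r difference was -0.67 and was called lower. Pik3ip1 had 8.01, 8.16 and 8.02 in perinate thymus and 8.41, 8.16 and 8.47 in adult thymus. Its groups met at replicate 2 of both, and the difference was -0.28 ± 0.13 (adjusted p = 0.125, limma).

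Insr had 8.74, 8.59 and 8.50 in perinate thymus, against 9.07, 8.80 and 9.14 in adult thymus, with no overlap and a difference of -0.39 ± 0.14 (adjusted p = 0.0671, limma). A second Insr probe set, not used for the tests, had a mean of 8.52 in perinate thymus and 8.38 in adult thymus, so the probe sets differed in direction here. Foxo3 had 9.19, 9.23 and 9.21 in perinate thymus, against 9.02, 8.61 and 8.87 in adult thymus. Its perinate arrays were nearly equal and above all adult ones, with a difference of 0.38 ± 0.13 (adjusted p = 0.0681, limma).

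Inpp5d had 10.92, 10.85 and 10.79 in perinate thymus, against 10.76, 10.20 and 10.33 in adult thymus, which did not overlap (0.42 ± 0.16, adjusted p = 0.0807, limma). Irs2 had 8.50, 8.78 and 8.67 in perinate thymus and 8.74, 8.02 and 8.64 in adult thymus, with a difference of 0.18. Pik3r1 (11.32, 11.21 and 11.14 in perinate thymus and 11.22, 11.26 and 11.29 in adult thymus) and Phlpp1 (9.04, 8.85 and 8.95, and 9.10, 8.28 and 9.14) overlapped. In all, 3 of the 8 genes had groups that did not overlap, beside 53.6% of all genes.

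Adult thymus replicate 2 was the lowest array of its group for all of these genes but Pik3r1. It also had the lowest interquartile range of the thymus arrays, 2.08. The 5 markers of CD8 T and NK cells summed to 1654 to 1733 in linear intensity in perinate thymus and 2149 to 2398 in adult thymus, and the part of this difference in these values was not tested. Most of the sum came from Cd8a (9.75 in perinate and 10.36 in adult thymus) and Cd8b1 (8.98 and 9.27), which are also markers of immature thymocytes. Of the 8 genes, 4 passed without adult thymus replicate 2, Foxo3 higher at 0.27 and Igf1r, Insr and Pik3ip1 lower at -0.34, -0.49 and -0.38. Without adult thymus replicate 1, 2 passed, Inpp5d at 0.59 and Foxo3 at 0.48. The number of all genes called moved as well when 1 thymus array was left out, between 708 and 4215 of 10650, against 2584 with all 6 arrays. After quantile normalization Insr (-0.65) and Pik3ip1 (-0.48) passed. Over all genes 1964 were called higher and 620 lower, against 1208 and 1050 after quantile normalization and 1176 and 1630 after centring on the genes tested, which moved the median of all genes by -0.18 and -0.23.

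Subtracting the thymus difference from the spleen difference gave a call for Igf1r alone among the 8, at -1.12 ± 0.30 (adjusted p = 0.0299, limma), where 6.46% of 10889 genes were called, 2.56% lower and 3.89% higher. Its difference was -1.20 between tagged spleen cells and -0.08 in thymus. This call ended under median centring over all genes (-1.15, adjusted p = 0.0537), with the replicate block (-1.14, adjusted p = 0.0573), and without any 1 of 8 arrays, adult-tagged replicates 1 and 2, perinate-tagged replicates 2, 4 and 5, adult thymus replicate 3 and perinate thymus replicates 1 and 2. Pik3ip1 had -0.68 ± 0.25 (adjusted p = 0.11, limma) and Foxo3 -0.55 ± 0.21 (adjusted p = 0.128, limma), and neither passed.

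Across the 6 groups the order of levels showed where perinate-tagged cells stood. Igf1r was lowest in perinate-tagged cells (8.59 ± 0.06, SD, n = 3), followed by perinate thymus, adult thymus, untagged adult-treated and adult-tagged cells, and highest in untagged perinate-treated cells (9.95 ± 0.18). The last 5 groups of that order overlapped with their neighbours, and perinate-tagged cells alone stood clear of the next group, perinate thymus (9.37 ± 0.11). Pik3ip1 had the same bottom group (7.94 ± 0.26) and the same top group (9.41 ± 0.22), but perinate thymus (8.06 ± 0.08) lay next to perinate-tagged cells within the range of their arrays.

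Perinate-tagged cells were also lowest for Irs2 and Pik3r1, while they were highest for Inpp5d (11.12 ± 0.04). Insr was lowest in perinate thymus (8.61 ± 0.13) and Foxo3 in adult thymus (8.83 ± 0.21), and Phlpp1 was lowest in adult-tagged cells (8.40 ± 0.10). The group means of Pik3ip1 spanned 1.47 and those of Igf1r 1.36 on the log2 scale, against 0.34 to 0.84 for the other 6 genes.

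Profiles over the 6 group means, each centred on its own mean, were compared by the root mean square of their difference. Among pairs of the 8 genes, Pik3r1 and Foxo3 were nearest (0.16) and Pik3ip1 and Inpp5d farthest (0.64), while Igf1r and Pik3ip1 stood at 0.29. Among 10357 genes, Ssbp2 (0.18), Tgfbr3 (0.19) and Znrf3 (0.19) were nearest to Igf1r, and Carns1 (0.16), Il7r (0.17) and Dtx4 (0.20) to Pik3ip1. Il7r, the receptor of interleukin 7, is itself a listed FOXO target below. Slc41a1 and Kif5c (0.06 each) and Plcl1 (0.07) were nearest to Insr, Braf, Tead1 and Eng (0.07 each) to Irs2, and Zcchc7 (0.03) to Pik3r1. Gnai2 (0.02) was nearest to Inpp5d, Poglut2 (0.07) to Phlpp1, and Nsun5 and Cic (0.02 each) to Foxo3. The last 6 genes varied less over the groups than Igf1r and Pik3ip1, which makes small distances easier to reach, and all profiles share the same 18 arrays.

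**Figure D4:**
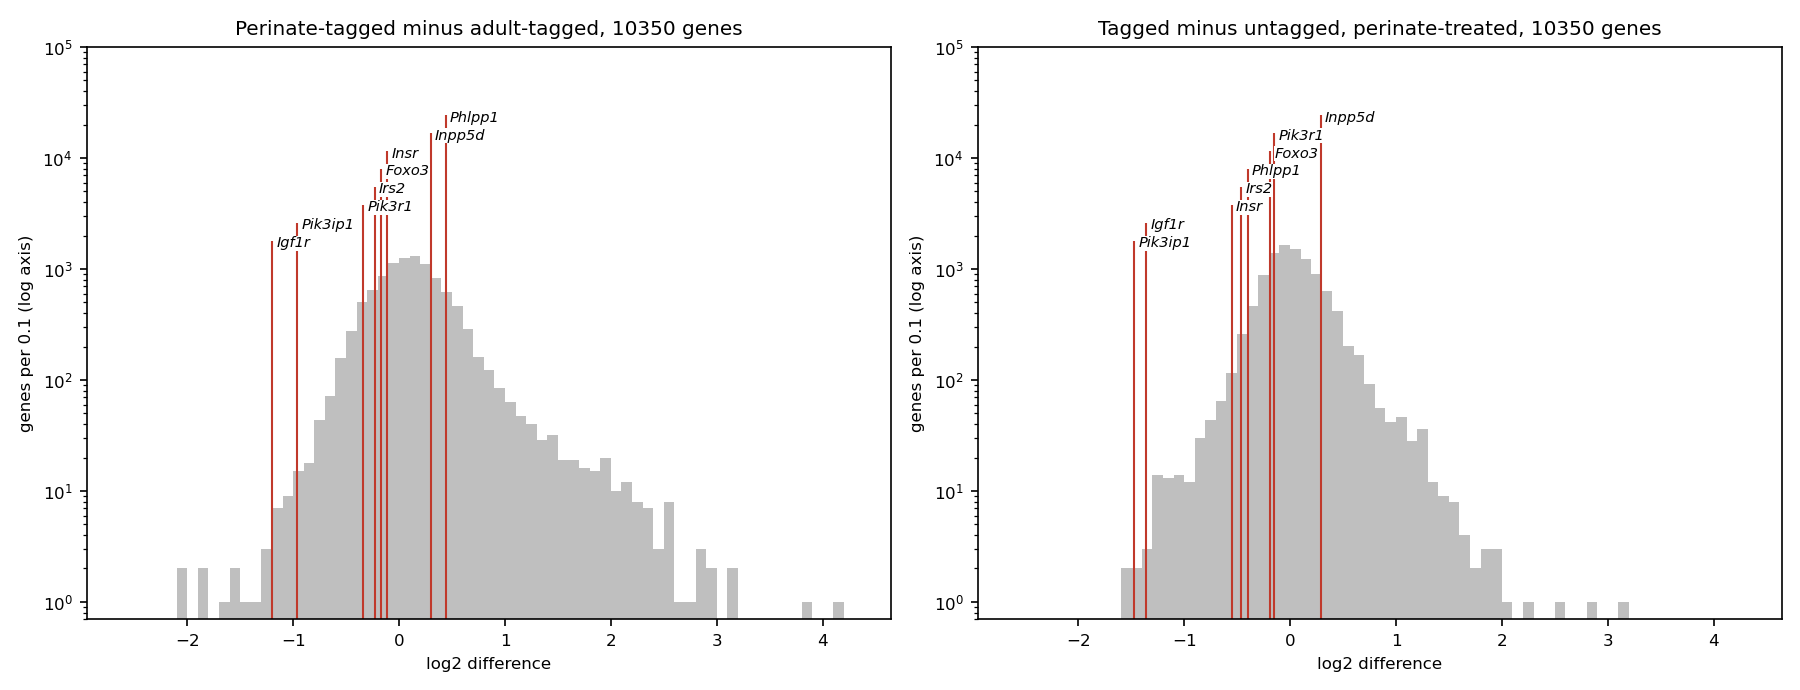
Histograms of the log2 difference of 10350 genes (grey, number of genes per 0.1 on a log axis) in 2 comparisons, with the 8 genes as red lines whose heights only separate the names. Igf1r and Pik3ip1 lie in the left tail of both panels, at -1.20 and -0.96 on the left and -1.36 and -1.47 on the right, and the other 6 lie between -0.55 and 0.44.

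The wider pathway was read from lists of its parts. Of 11 ligands and binding proteins of the IGF family on the array, 4 were bright enough to test, and 1 rose in perinate-tagged cells, Igfbp7, a secreted protein that binds IGFs weakly, by 0.93 ± 0.27 (adjusted p = 0.0285, limma). Its mean was 8.20 ± 0.36 (SD, n = 3) in perinate-tagged cells and 7.27 ± 0.25 in adult-tagged cells. Of 10 tested adaptors and inhibitors next to the receptors 1 rose, Grb2, which couples receptors to Ras, by 0.70 ± 0.14 (adjusted p = 0.00355, limma). The medians of the 2 lists were -0.27 and 0.06, beside 0.12 over all genes.

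Among 12 tested PI3K subunits and activators, 2 rose and 1 fell in perinate-tagged cells. Pik3cg, the catalytic subunit that acts below G protein-coupled receptors, was at 10.39 ± 0.13 (SD, n = 3) in perinate-tagged cells and 9.88 ± 0.08 in adult-tagged cells. Pik3r5, a regulatory subunit known to pair with it, was at 10.02 ± 0.24 in perinate-tagged cells and 10.60 ± 0.19 in adult-tagged cells (-0.59 ± 0.19, adjusted p = 0.0388, limma). Pik3ap1, an adaptor known from B cells, was higher by 0.75, and the median of the list was -0.05. After quantile normalization 2 of the list were higher and 3 lower, after centring on the genes tested 1 and 3, and after median centring over all genes 2 and 0. The share of all genes called in this comparison, 16.0% higher and 3.50% lower, stands beside each of these list counts.

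Of 22 tested other brakes of PI3K, AKT and mTOR, 5 rose in perinate-tagged cells and none fell. Sesn2, a stress-induced leucine sensor that restrains mTOR, was at 8.03 ± 0.06 (SD, n = 3) in perinate-tagged cells and 7.13 ± 0.10 in adult-tagged cells (0.90 ± 0.15, adjusted p = 0.00103, limma). Tbc1d7, a subunit of the TSC complex that switches off Rheb, differed by 1.11 ± 0.25 (adjusted p = 0.00799, limma), and Castor1, an arginine sensor, and the phosphatase 2A subunits Ppp2cb and Ppp2ca by 0.48 each. The median of the list was 0.07, below that of all genes, and after quantile normalization 2 of the list were higher and 4 lower.

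Of 17 tested genes of AKT, mTOR and their effectors, 4 rose and none fell, Akt1 by 0.67, Sgk1 by 0.64, Rheb by 0.57 and Mlst8 by 0.52. Akt1, one of the AKT kinases, was at 10.24 ± 0.05 (SD, n = 3) in perinate-tagged cells and 9.57 ± 0.18 in adult-tagged cells. After quantile normalization 2 of these genes were called higher and 2 lower, and the list median was 0.05. Neither of the other tested FOXO factors, Foxo1 and Foxo4, was called.

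Of 15 tested FOXO target genes 1 fell and 3 rose in perinate-tagged cells. Ccr7, the chemokine receptor that guides T cells into lymph nodes, was at 11.42 ± 0.23 (SD, n = 3) in perinate-tagged cells and 12.33 ± 0.14 in adult-tagged cells (-0.91 ± 0.16, adjusted p = 0.00123, limma). Rbl2, Ccng2 and Trp53inp1 were higher by 0.61, 0.53 and 0.46, and the list median was 0.14. After quantile normalization 2 of the list were higher and 2 lower. Leaving aside Ppp2ca, 17 genes were named here from these lists, and of these only Ccr7 kept its call in all 17 alternatives. With the interquartile range as a covariate the calls of Sesn2 (0.74), Tbc1d7 (1.04), Akt1 (0.39) and Sgk1 (0.43) ended. With the replicate block the calls of Igfbp7, Sesn2, Tbc1d7, Akt1, Sgk1 and Ccr7 stood and the other 11 ended. That block joins tagged arrays by number, a pairing that their correlations do not show.

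**Figure D5:**
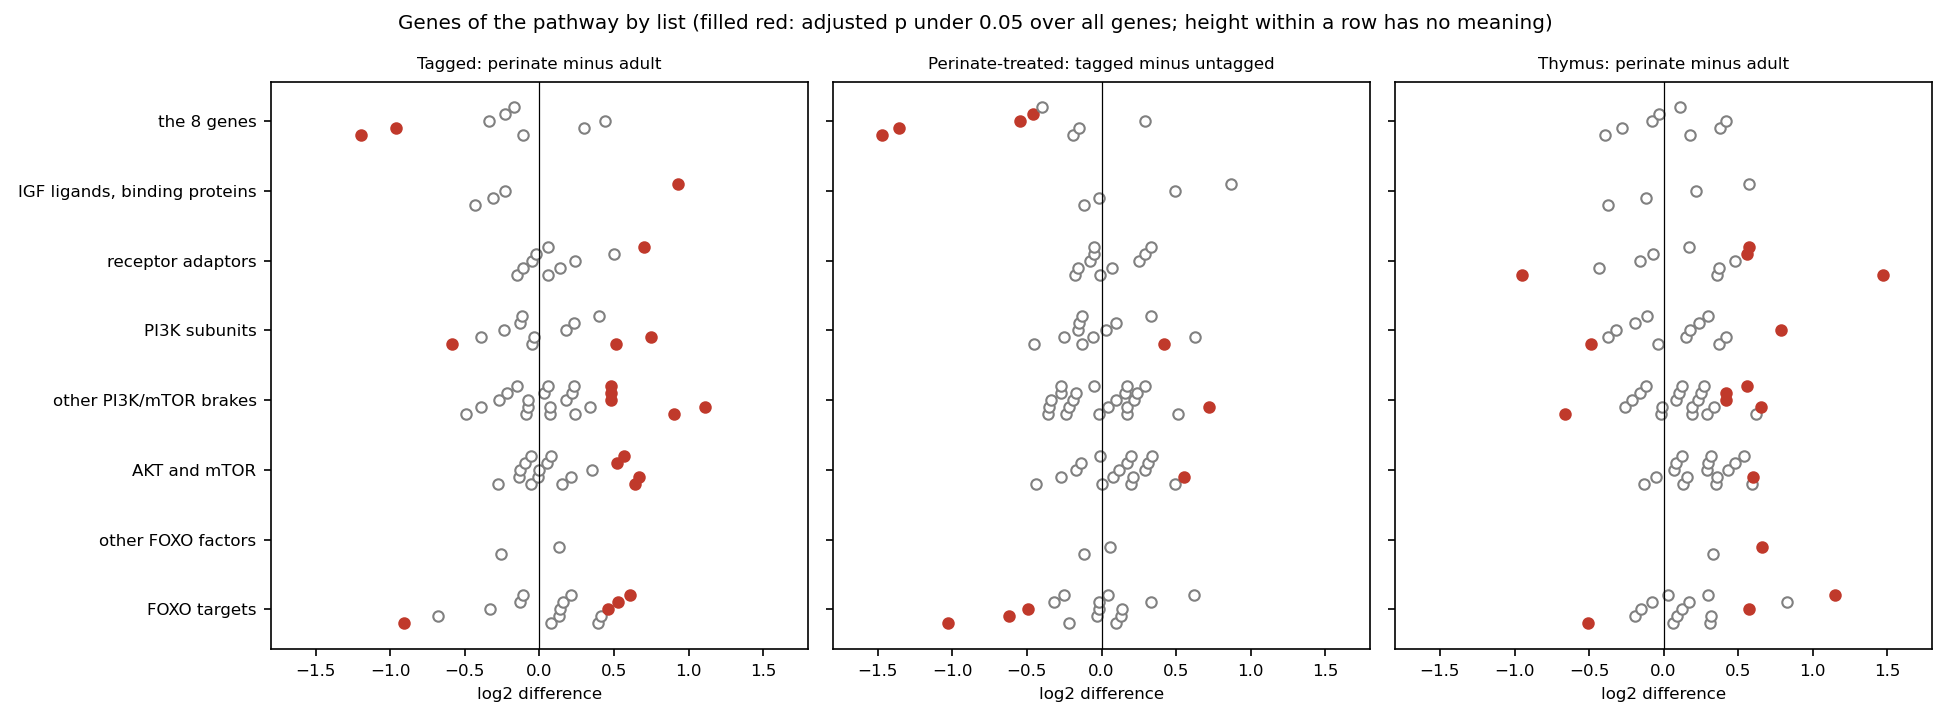
Log2 difference of each tested gene (points) by pathway list (rows) in 3 comparisons (panels); filled red points passed an adjusted p of 0.05 over all genes, and height within a row has no meaning. The 8 genes hold the 2 lowest points of the left panel and of the middle panel, while most red points of the other lists lie on the right, such as Tbc1d7 at 1.11 and Shc1 at 1.47.

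The same lists were read against untagged cells of perinate-treated mice, where 7.34% of all genes were called, 5.49% higher and 1.86% lower. Sesn2 (0.72 ± 0.15), Sgk1 (0.55 ± 0.15) and Pik3cg (0.42 ± 0.12) rose in perinate-tagged cells, each the only call of its list. Among FOXO targets 3 fell: Il7r by 1.03, with 11.41 ± 0.41 (SD, n = 3) in perinate-tagged cells and 12.44 ± 0.33 in untagged perinate-treated cells, Ccr7 by 0.62, and Txnip, an inhibitor of glucose uptake, by 0.49. The ligand, adaptor and FOXO factor lists held 0 calls there. All 6 of these calls ended in at least 1 alternative. The tagged difference exceeded the untagged one for Sesn2 (0.88 ± 0.22) and lay below it for Ccr7 (-1.04 ± 0.22), with adjusted p = 0.0308 and 0.0144 (limma). Both calls ended with the replicate block. In the comparison of untagged cells and in that of adult-tagged with untagged adult-treated cells, 0 genes of these lists were called. Over all 10350 genes, 0 and 28 were called there.

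In perinate thymus Grb2 (0.56), Pik3cg (0.79), Akt1 (0.60), Castor1 (0.56), Ppp2cb (0.42) and Ppp2ca (0.42) were called higher than in adult thymus. These genes were also called higher in perinate-tagged than in adult-tagged cells. Of all genes 18.4% were called higher in thymus and 16.0% between tagged cells, and the share called higher in both was not counted. In thymus the call of Akt1 ended in 9 of 16 alternatives, those of Ppp2cb and Ppp2ca in 10 each and that of Grb2 in 5. Shc1, an adaptor of receptor tyrosine kinases, rose by 1.47 ± 0.20 (adjusted p = 0.00242, limma), at 8.94 ± 0.03 (SD, n = 3) in perinate thymus and 7.46 ± 0.41 in adult thymus. Pik3cg rose by 0.79 ± 0.13 (adjusted p = 0.00638, limma), and these 2 calls stood in all 16 alternatives. Foxo1, the main FOXO factor of T cells, was at 11.34 ± 0.11 in perinate thymus and 10.69 ± 0.30 in adult thymus (0.66 ± 0.17, adjusted p = 0.027, limma), and Bcl2l11, which encodes the death-promoting protein BIM, was higher by 1.15. Gab3 fell by 0.95, Nprl2, a subunit of a complex that restrains mTOR, by 0.66, Il7r by 0.51 and Pik3c2a by 0.49.

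By list, the thymus calls were 3 higher and 1 lower of 11 adaptors, 1 and 1 of 13 PI3K subunits, 4 and 1 of 22 other brakes, 1 and 0 of 17 AKT and mTOR genes, and 2 and 1 of 15 FOXO targets. Beside these counts, 18.4% of all genes were called higher and 5.82% lower. After quantile normalization the counts were 4 and 2, 1 and 2, 1 and 3, 0 and 0, and 1 and 3 in the same order of lists. The spleen minus thymus difference passed for Ccr7 (-1.03), Foxo1 (-0.92), Rictor (-0.59), Pik3ap1 (0.94), Gab3 (0.80) and Rbl2 (0.69), and each of these calls ended in at least 1 alternative.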

How the data were processed

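The authors deposited 1 linear intensity for each probe set and array, between 6.81 and 18850. The submitters' processing notes name Affymetrix Power Tools and RMA. Versions, genome build and the arrays normalized together are not given in the sources used here. Of 24922 probe sets, 21425 carry 1 gene symbol, 1399 several and 2098 none, by GEO's platform annotation. Per gene the probe set with the highest mean over 18 arrays was kept (19752 genes). Values were log2 transformed with no pseudocount and not normalized again. Precision here is limited by the number of arrays.

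A gene was tested when its mean in at least 1 group of the fit reached the median of all values, 132.7 in linear intensity. That left 10350 genes for the 12 spleen arrays, 10650 for the 6 thymus arrays and 10889 for all 18. Group means were compared by limma 3.58.1 (lmFit, then eBayes, two-sided; R 4.3.3) with Benjamini-Hochberg adjustment over all genes tested and a threshold of 0.05. Simulated data with changes of known size were used to test the fits. Figures were drawn with matplotlib 3.10.9.

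The 8 genes and the lists were chosen with earlier results of these data known. Named were the 8 genes, up to 4 called genes per list and comparison by lowest p (and Ppp2ca in spleen and Castor1 in thymus, named after their values were seen), the 3 genes nearest in profile (for 4 of the 8 genes only some are printed), and marker genes. Promoter windows are RefSeq's, GRCm38.p6. Protein sequences were not analysed here, nor was the chimera arm that the series text describes.

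After subtraction of the group mean, untagged arrays with the same number correlated with r of 0.63, 0.14 and 0.47 for replicates 3, 4 and 5, and were taken as pairs. Unlike numbers correlated too, perinate-treated 4 with adult-treated 5 at 0.27 and 5 with 4 at 0.30, so pair 4 did not stand out. This pairing comes from the data, not from the labels. The replicate block also joined tagged arrays by number. Same-number r was 0.02 between the tagged groups, -0.11 and 0.00 between perinate-tagged and untagged perinate-treated arrays, and 0.06 between adult-tagged and untagged adult-treated arrays. In thymus same-number r was -0.05, 0.06 and 0.12. Alternatives were quantile normalization, median centring, no filter, the mean of a gene's probe sets, a variance prior with trend and robust fitting, array weights, other sets of arrays in the fit, the interquartile range as a covariate, the replicate block and leaving out each array. Centring on the genes tested was chosen after seeing the data.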

Additional observations from a re-analysis of the deposited data

Results flagged for a closer look

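The Igf1r difference between perinate-tagged and adult-tagged cells was set apart from the difference between the untagged cells by the test of the difference itself, at -1.47 ± 0.26 on the log2 scale (adjusted p = 0.00331, limma). It passed in all 22 alternatives, with values of -1.70 to -1.25. The Pik3ip1 difference was set apart in the same way, at -1.23 ± 0.27 (adjusted p = 0.0141, limma), and passed in 21 of 22, all but the fit without adult-tagged replicate 1.

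The Igf1r difference in tagged spleen cells also differed from that in thymic Tregs, at -1.12 ± 0.30 (adjusted p = 0.0299, limma). It passed in 11 of 21 alternatives, with values of -1.34 to -0.86. Sex, sorter and age differ between spleen and thymus and cannot be told apart.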

How the results depend on the processing

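The lower Igf1r and Pik3ip1 in perinate-tagged than in adult-tagged cells kept their direction and their call in all 17 alternatives, with values of -1.64 to -1.09 and -1.18 to -0.86, as they did against untagged perinate-treated cells (-1.46 to -1.27 and -1.70 to -1.37). The cause of the changes below was not tested. Between perinate-tagged and adult-tagged cells, 4 of the 8 genes were called lower under quantile normalization and under centring on the genes tested (Irs2 and Pik3r1 added). With array weights 7 were called, all but Insr, and with only these 2 groups in the fit 5 were called. In both of these settings Inpp5d and Phlpp1 were called higher, and the other called genes lower. The genes called numbered 2019 as reported, 5905 with array weights, 3368 with only these 2 groups and 376 with the interquartile range as a covariate, and the Phlpp1 difference turned to -0.04 with that covariate. With the replicate block the count was 655 and Phlpp1 was at -0.38. Between untagged groups, Pik3r1 turned to -0.04 (quantile normalization), -0.08 (centring on the genes tested) and -0.07 (array weights), Foxo3 to 0.00 (just below 0, that centring) and -0.01 (the covariate), and Phlpp1 to -0.04 (the covariate), and 37 genes were called with the replicate block over the 6 untagged arrays. For the tagged minus the untagged difference, 506 genes as reported became 1077 with array weights and 274 with the replicate block, while Phlpp1 turned to -0.14 with array weights, 0.00 (just below 0) with the covariate and -0.56 with the block. Between tagged and untagged perinate-treated cells, 2 of the 8 genes stayed called with median centring and with no filter, Igf1r and Pik3ip1, and 3867 genes were called with array weights. Between adult-tagged and untagged adult-treated cells, the 28 genes became 12 with centring on the genes tested, 17 with no filter, 71 with array weights, 122 with only these 2 groups, 97 with all 18 arrays, 11 with the replicate block, and 0 with the covariate. In thymus 2 of the 8 genes were called with quantile normalization and with centring on the genes tested (Insr and Pik3ip1), and 1 with all 18 arrays (Inpp5d). With the covariate 4 were called there, all lower (Igf1r at -0.67, Insr, Pik3ip1 and Phlpp1), and 1567 genes were called with array weights. There Irs2 turned to -0.04 (quantile normalization), -0.05 (centring on the genes tested) and -0.30 (the covariate), Phlpp1 to -0.15, -0.12 and -0.49 under the same settings and -0.06 with array weights, and Igf1r to 0.02 and Pik3r1 to 0.07 with median centring. For the spleen minus the thymus difference, the genes called were 1065 with quantile normalization, 1084 with centring on the genes tested, 5087 with array weights and 1463 with the covariate, 0 of the 8 genes were called with median centring or with the replicate block and 7 with array weights, Insr turned to -0.05 with the mean of its probe sets, and Phlpp1 to -0.49 with the block. Leaving out each array gave 901 to 2001 genes for perinate-tagged against adult-tagged cells and 278 to 685 for the tagged minus the untagged difference (1 to 2 of the 8 genes). Both counts moved by over 1.5 times without adult-tagged replicates 1 or 3 or perinate-tagged replicates 4 or 5. It gave 300 to 991 for tagged against untagged perinate-treated cells (2 to 4 of the 8 genes), 0 to 765 in adult-treated mice (0 to 2), 0 to 6 between untagged groups, 708 to 4215 in thymus (0 to 4) and 393 to 1074 for spleen minus thymus (0 to 1). Moves over 1.5 times came without perinate-tagged or untagged perinate-treated replicates 4 or 5 in perinate-treated mice, without any 1 array in adult-treated mice and in thymus, and without untagged adult-treated replicate 3 between untagged groups. For spleen minus thymus they came without adult-tagged replicate 1, perinate-tagged replicate 5, adult thymus replicates 1 or 3 or perinate thymus replicates 1 or 2. The ranges that crossed 0 were, between untagged groups, -0.04 to 0.26 for Insr, -0.37 to 0.66 for Phlpp1, -0.12 to 0.19 for Foxo3 and -0.11 to 0.10 for Pik3r1. They were -0.22 to 0.81 for Phlpp1 in the tagged minus the untagged difference, and -0.14 to 0.17 for Foxo3 and -0.11 to 0.34 for Igf1r in adult-treated mice. In thymus they were -0.34 to 0.14 for Igf1r, -0.04 to 0.32 for Irs2, -0.17 to 0.26 for Phlpp1 and -0.08 to 0.01 for Pik3r1. Beside the values given here and in the report, the replicate block changed no other call among the 8 genes.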
